A study of Homo sapiens with 10 samples.

Results

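The BEN domain gene family was followed through RNA sequencing libraries of TREx293 cells. The members were the rows of the count table whose gene symbol was BEND2, BEND3, BEND4, BEND5, BEND6, BEND7, NACC1 or NACC2, and all 8 were found among 58216 gene identifiers. TREx293 is a human embryonic kidney line that makes the tetracycline repressor, so a construct under its control stays silent until doxycycline is given. The 10 libraries formed 5 groups of 2. Control cells (CTRL) were labelled wild type, and the other groups carried HA-tagged MN1, BEND2, the fusion MN1-BEND2 or the fusion MN1-CXXC5, induced with doxycycline. The labels do not say whether control cells received doxycycline, whether a line was a single clone, or whether both libraries of a group are separate cultures, so p-values here reflect a spread that may be only technical. The series was designed to ask how MN1-BEND2 activates transcription across the genome. BEND2 is both a family member and a construct, and it is described apart from the other 7 members.

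The BEN domain is a small helical fold that binds DNA and proteins, and most of its members are known as transcriptional repressors or chromatin factors. NACC1 and NACC2 join it to a BTB domain, which makes dimers and brings in corepressors: NACC1 recruits histone deacetylases and is studied in neurons, pluripotent cells and ovarian cancer, and NACC2 recruits the NuRD complex. BEND3 holds heterochromatin and ribosomal DNA silent and works with NuRD, the NoRC complex and polycomb. BEND6 binds RBPJ, the DNA-binding factor of Notch signalling, and restrains Notch targets in neural cells. BEND5 is a sequence-specific repressor, and BEND2 is a germ cell gene needed in meiosis. MN1 is a transcriptional coregulator, CXXC5 binds unmethylated CpG, and fusions of MN1 to BEND2 or CXXC5 occur in astroblastoma, a brain tumour.

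The members lie on 7 chromosomes (GRCh38, GENCODE v29). BEND2 (ENSG00000177324) is at chrX:18162931-18220883 on the minus strand and BEND3 (ENSG00000178409) at chr6:107065182-107115269, also minus. BEND4 (ENSG00000188848) is at chr4:42110938-42152878, BEND5 (ENSG00000162373) at chr1:48727523-48776969 and BEND7 (ENSG00000165626) at chr10:13438484-13528974, all on the minus strand. BEND6 (ENSG00000151917) is at chr6:56955126-57027342 and NACC1 (ENSG00000160877) at chr19:13118103-13141141, both on the plus strand, and NACC2 (ENSG00000148411) is at chr9:136006537-136095285 on the minus strand. The exons of NACC1 overlap an antisense gene, AC011446.1, over 452 bases, and those of BEND7 overlap AL590677.1 over 137 bases. AC011446.1 had 0 counts in every library and AL590677.1 had at most 1. BEND3 has pseudogenes, of which BEND3P3 had 20 to 56 counts a library and BEND3P1 had 5 to 27.

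RefSeq (GRCh38.p14) gives a start site for 7 of the 8 members. The sequences below lie just before the start sites of BEND6, NACC1 and NACC2, which rose in MN1 cells, and of BEND7, which rose in MN1-CXXC5 cells. Each is written 5′ to 3′ on the gene's strand, outside annotated exons, with every CpG in capitals, because CpG is the site that CXXC domains and BEND3 are known to read. Those of BEND6, NACC2 and BEND7 hold all 250 bases before the start (chr6:56954857-56955106, chr9:136095290-136095539 and chr10:13529015-13529264). That of NACC1 holds 132 bases (chr19:13118132-13118263), which lie in an intron of a NACC1 transcript with an earlier first exon.
BEND6: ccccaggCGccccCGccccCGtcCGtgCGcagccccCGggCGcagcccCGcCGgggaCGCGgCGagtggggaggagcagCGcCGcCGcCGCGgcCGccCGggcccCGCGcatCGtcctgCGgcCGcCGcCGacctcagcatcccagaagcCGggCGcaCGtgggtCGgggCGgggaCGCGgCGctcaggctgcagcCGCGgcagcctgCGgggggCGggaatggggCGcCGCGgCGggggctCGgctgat
NACC1: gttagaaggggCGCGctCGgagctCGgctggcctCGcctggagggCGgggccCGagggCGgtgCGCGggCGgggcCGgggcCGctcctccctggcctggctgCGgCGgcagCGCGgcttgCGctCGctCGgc
NACC2: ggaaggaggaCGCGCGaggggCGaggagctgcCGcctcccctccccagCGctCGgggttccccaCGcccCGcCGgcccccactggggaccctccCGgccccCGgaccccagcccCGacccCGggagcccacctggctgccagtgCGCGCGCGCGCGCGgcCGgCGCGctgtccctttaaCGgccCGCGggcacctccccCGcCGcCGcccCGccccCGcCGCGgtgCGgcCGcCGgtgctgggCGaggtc
BEND7: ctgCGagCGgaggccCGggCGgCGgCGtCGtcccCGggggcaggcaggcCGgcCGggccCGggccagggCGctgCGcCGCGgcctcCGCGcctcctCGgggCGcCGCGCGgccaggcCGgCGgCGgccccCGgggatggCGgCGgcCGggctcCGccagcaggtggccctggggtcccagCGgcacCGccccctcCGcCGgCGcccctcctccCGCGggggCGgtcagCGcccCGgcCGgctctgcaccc
Over 250 bases BEND6 had 43 CpG, BEND7 had 41, NACC2 had 38 and NACC1 had 31, against a median of 11 over 35116 promoters. BEND6 stood at the 99.0 percentile of that count, BEND7 at 98.3, NACC2 at 96.7 and NACC1 at 89.1. The 2 entries of BEND3 had 32 and 37 CpG (90.5 and 96.0 percentiles). BEND4 had 18 CpG (63.2 percentile) and BEND5 had 21 (69.8 percentile). Promoters of members that rose in different cells were thus alike in being rich in CpG. BEND4, which also rose in MN1-CXXC5 cells, was not far above the median. However, 223 of its 250 bases lie in an annotated BEND4 exon, so its count is not like that of windows outside exons. For BEND5, 78 bases lie in an exon. On both strands of these 250 bases, CACGTG was found in BEND6 and in the first of 2 entries of BEND3, and in 6.34% of all promoters. CCAAT was found in BEND4 and BEND5 and in 32.0% of all promoters. TGGGAA (20.8% of promoters) and CCAATTGG, which contains CCAAT (0.327%), were not found in these windows of any member.

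Libraries held 15.9 to 26.8 M counts (M is 1e6), so that 3 counts correspond to 0.112 to 0.189 counts per 1e6 (CPM). Floors and the exact binomial intervals of BEND2 cover counting error only, and reads carried no molecular identifiers. The 95% intervals of log2 fold changes rest on the edgeR SE, which also holds the spread between libraries. All 8 genes of a list of HEK293 markers had counts in every library. A list of 12 salivary gland and squamous genes summed to 95.5 CPM in control replicate 1 and 86.1 CPM in MN1 replicate 1, against 0.312 to 2.64 CPM in the other 8 libraries, with AMY1A at 0 throughout. Their part in the results was not tested, but each comparison was repeated without both libraries, and the members' calls that this ended are given beside each result. MN1 had 3.81 and 3.91 CPM in control cells, against 325 and 328 CPM with its own construct, 290.6 and 290.8 CPM with MN1-BEND2 and 127.5 and 128.2 CPM with MN1-CXXC5. CXXC5 had 13.4 and 13.6 CPM in control cells and 55.2 and 61.9 CPM in MN1-CXXC5 cells. Each construct's reads were thus high where the labels place it. Smaller changes from control were called in groups without the construct. CXXC5 was 0.73 in MN1-BEND2 cells (edgeR adjusted p = 5.84e-06) and -0.63 in MN1 cells (0.000135), as log2 folds. MN1 was 0.44 in BEND2 cells (edgeR adjusted p = 0.0271). These counts do not separate reads of a construct from those of the endogenous gene.

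The GC content of a gene's transcript moved with its change. Tested genes were put into 5 equal classes by GC content. In the highest class (57.5% to 76.0%) the median change from control, as a log2 fold, was 0.27 for MN1-BEND2, 0.13 for BEND2, 0.12 for MN1 and -0.40 for MN1-CXXC5, and in the lowest (23.1% to 40.9%) it was -0.21, -0.07, -0.08 and 0.07. NACC1 (63.4% GC) and NACC2 (59.5%) lie in the highest class, BEND6 (39.3%) in the lowest, and BEND7 (41.2%) and BEND4 (44.5%) in the class above it. Each fit was therefore repeated with offsets for GC content and length, called GC offsets below, and their values stand beside the results they change. The part of GC content in the results was not tested beyond these offsets.

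BEND2 itself was nearly silent without its construct. Control libraries held 0 and 4 BEND2 reads and MN1 libraries 0 and 6. MN1-CXXC5 libraries held 7 and 10 reads (0.414 and 0.573 CPM), above the floor of 3 counts in both. With the construct, BEND2 reached 389.9 and 399.2 CPM in BEND2 cells and 393.6 and 407.1 CPM in MN1-BEND2 cells. These reads add the construct to the endogenous gene, and the labels do not say which part of BEND2 the fusion keeps. Scaled to depth, BEND2 cells had 4187 times the control level (95% exact binomial interval 1635 to 15370) and MN1-BEND2 cells 4271 times (1668 to 15680). The constructs did not differ detectably: MN1-BEND2 against BEND2 cells gave a log2 fold change of 0.02 (SE 0.06, 95% interval -0.11 to 0.15, edgeR adjusted p = 0.807). In MN1-CXXC5 cells the ratio to control was 5.27 (1.72 to 21.5, from 17 against 4 reads), called at an edgeR adjusted p of 0.0409. BEND2 passed the filter on low counts through the groups that carry it, so this call is not read as a result. The call was lost in 7 of 17 alternative analyses, among them GC offsets (log2 fold change 2.29, edgeR adjusted p = 0.0502). Among the other losses, the log2 fold change was 1.5 without control replicate 1. It was 2.53 without MN1-CXXC5 replicate 1, 2.07 without MN1-CXXC5 replicate 2 and 2.32 without either BEND2 replicate. Without control and MN1 replicates 1 together it was 1.52.

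The other 7 members were all detected in control cells, at different levels. Per kilobase of exon, NACC1 had the highest level (11.3 CPM per kb, percentile 76.8 of the 18127 tested genes), followed by BEND4 (7.82, percentile 68.6) and BEND7 (4.64, percentile 56.7). NACC2 (3.10), BEND3 (2.04) and BEND6 (1.30 CPM per kb) lay lower, at percentiles 47.8, 39.4 and 31.3. BEND5 was near the bottom (0.600, percentile 19.3) and BEND2 at percentile 0.287. BEND2 is among the tested genes through the groups that carry it. The cells thus hold appreciable NACC1 and BEND4 RNA and little BEND5.

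**Figure D1:**
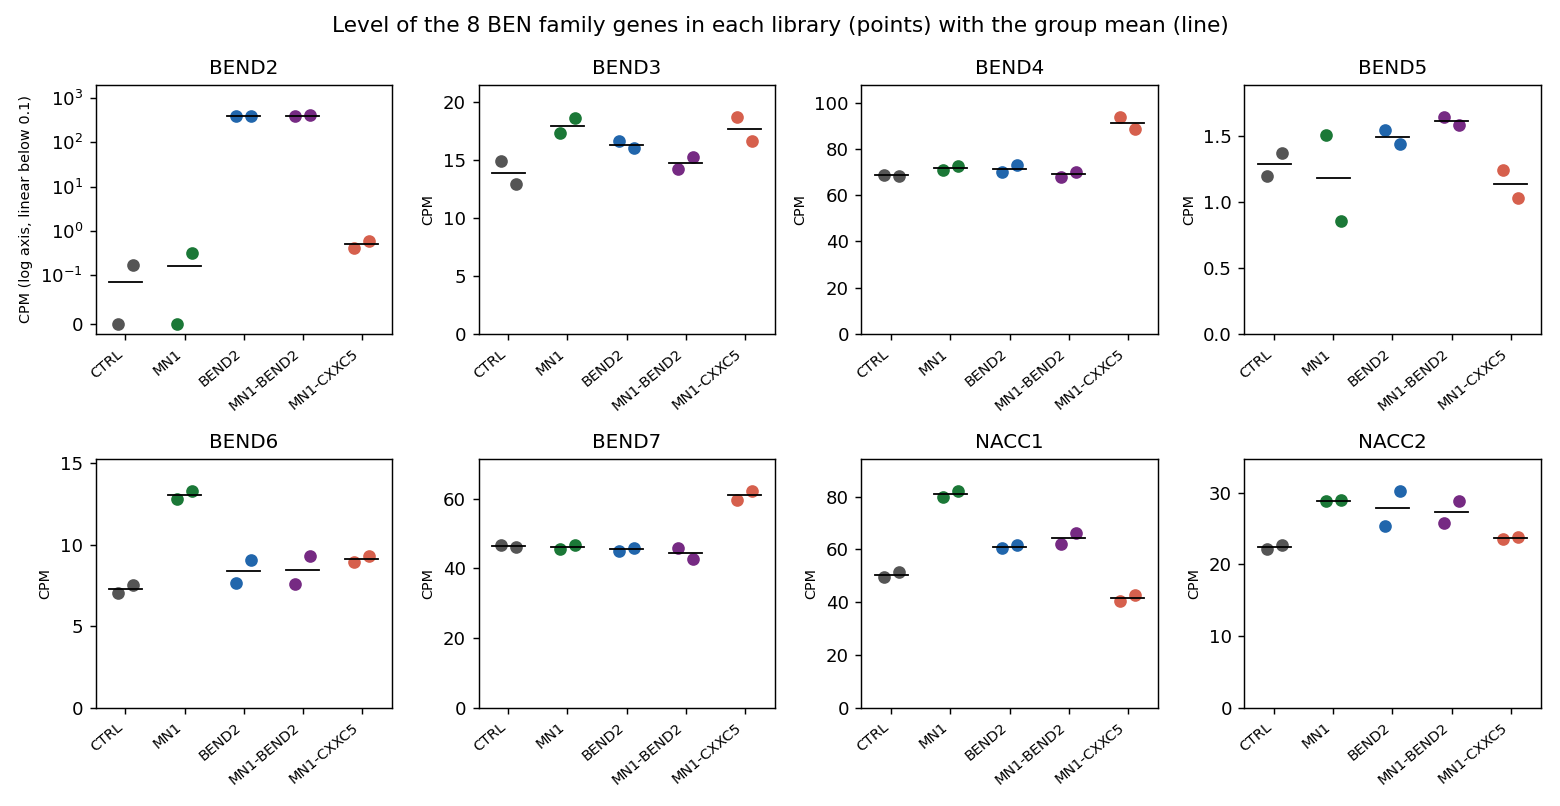
Level of each BEN family gene in CPM (y axis, linear from 0, except a log axis that is linear below 0.1 for BEND2) in the 5 groups, with a point for each library and a line at the group mean. NACC1 and BEND6 are highest in MN1 cells, BEND4 and BEND7 in MN1-CXXC5 cells, and BEND2 is near 0 outside the 2 groups that carry it.

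MN1 cells were compared with control cells to see which members move with full-length MN1. BEND6, NACC1, NACC2 and BEND3 rose and no member fell. BEND6, the RBPJ partner, had 7.03 and 7.53 CPM in control cells and 12.8 and 13.3 CPM in MN1 cells. The MN1 libraries were higher than all 8 others, and the log2 fold change was 0.84 (SE 0.12, 1.79-fold, edgeR adjusted p = 0.000137). NACC1, the BTB corepressor, went from 49.5 and 51.3 CPM to 79.8 and 82.1 CPM, again above every other library. Its log2 fold change was 0.68 (SE 0.044, 1.61-fold, edgeR adjusted p = 3.32e-07). Both rises held in all 18 alternative analyses, BEND6 between 0.79 and 0.90 and NACC1 between 0.59 and 0.71.

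The other rises in MN1 cells were smaller. NACC2 had 22.1 and 22.6 CPM in control cells and 28.76 and 29.02 CPM in MN1 cells, with no overlap, as for 5 of the 7 members. Its log2 fold change was 0.37 (SE 0.08, edgeR adjusted p = 0.00281), and the adjusted p was 0.0501 without control replicate 1 and MN1 replicate 1 together. BEND3, the heterochromatin factor, had 14.9 and 12.9 CPM in control cells and 17.3 and 18.7 CPM in MN1 cells. Its log2 fold change was 0.38 (SE 0.092, edgeR adjusted p = 0.00575). The BEND3 call was lost with DESeq2 (adjusted p = 0.0514), without control replicate 2 (0.0732) and without MN1 replicate 2 (0.0544). BEND4 (0.07), BEND5 (-0.13) and BEND7 (-0.01) were not called. The count of 4 of 7 members, 4 of them higher, stands beside 43.0% of all tested genes called and 21.6% called higher. The median log2 fold change was 0.37 over the 7 members and 0.00 over all tested genes.

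BEND2 cells showed what high BEND2 goes with among its relatives. Only the BTB members were called of the 7: NACC1 had 60.6 and 61.5 CPM (a change of 0.28 in log2, SE 0.044, edgeR adjusted p = 0.00235) and NACC2 had 25.4 and 30.2 CPM (0.30, SE 0.08, edgeR adjusted p = 0.0283). Every NACC1 and NACC2 library of these cells lay above both control libraries. With 2 libraries a group this did not set them apart, since all 7 members, called or not, were free of overlap. The share of all tested genes without overlap is not given here. The count of 2 of 7 stands beside 14.2% of tested genes called and 6.71% called higher. BEND3 (0.24, adjusted p = 0.107), BEND6 (0.18), BEND5 (0.21), BEND4 (0.05) and BEND7 (-0.03) were not called. The NACC2 call was lost without control replicate 1 (edgeR adjusted p = 0.128), control replicate 2 (0.102) or BEND2 replicate 2 (0.187), and without control and MN1 replicates 1 together (0.147). With GC offsets 0 of the 7 were called: NACC1 was 0.14 (edgeR adjusted p = 0.0644) and NACC2 0.20 (0.154).

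In MN1-BEND2 cells NACC1 and NACC2 were again called against control. NACC1 had 62.2 and 66.1 CPM (a change of 0.35 in log2, SE 0.044, edgeR adjusted p = 3.2e-05), and NACC2 25.8 and 28.8 CPM (0.29, SE 0.079, edgeR adjusted p = 0.00845). This count of 2 of 7 stands beside 51.9% of tested genes called and 26.7% called higher. BEND6 had 7.56 and 9.30 CPM, with a log2 fold change of 0.22 (edgeR adjusted p = 0.16) that passed the threshold without MN1-BEND2 replicate 1 (0.35, adjusted p = 0.0479) and with GC offsets (0.35, adjusted p = 0.0382). BEND3 (0.09), BEND5 (0.32), BEND4 (0.01) and BEND7 (-0.07) were not called. The NACC2 call was lost with DESeq2 (adjusted p = 0.0868), without MN1-BEND2 replicate 2 (0.11) and without control and MN1 replicates 1 together (0.0648). With GC offsets both calls ended, NACC1 at 0.06 (edgeR adjusted p = 0.287) and NACC2 at 0.06 (0.579).

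**Figure D2:**
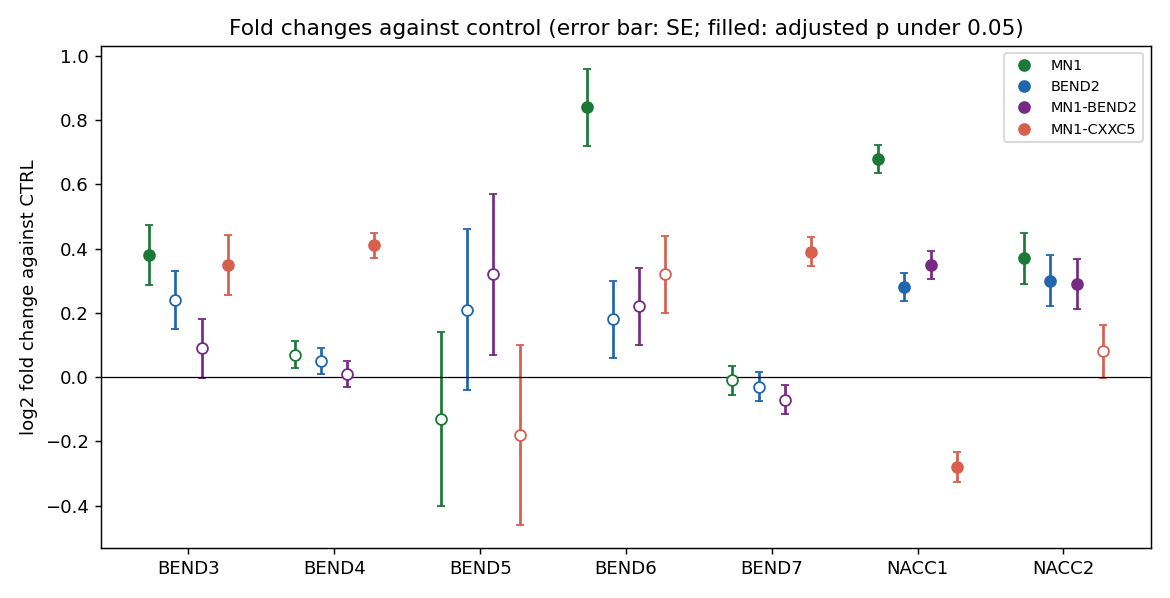
Log2 fold change against control of the 7 members other than BEND2 (x axis) in the 4 construct groups (colours); error bars are SE and filled points have an edgeR adjusted p under 0.05. BEND6 and NACC1 in MN1 cells (0.84 and 0.68) are the largest values, and NACC1 in MN1-CXXC5 cells (-0.28) is the only called fall.

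The fusion was then set against its parts. Against MN1 cells, MN1-BEND2 cells had less BEND6 (log2 fold change -0.62, SE 0.12, edgeR adjusted p = 0.000907) and less NACC1 (-0.33, SE 0.042, edgeR adjusted p = 4.39e-05). The libraries of the groups did not overlap for either gene, as for 5 of the 7 members, called or not. Both calls held in all 18 alternatives. BEND3 was also lower (-0.28, SE 0.091, edgeR adjusted p = 0.0239), a call lost with DESeq2 (0.155), with library totals in place of TMM factors (0.0509), without MN1 replicate 2 (0.151) and without MN1-BEND2 replicate 1 (0.123). These 3 of 7, all lower, stand beside 46.3% of tested genes called and 23.2% called lower, and NACC2 (-0.08), BEND4 (-0.05) and BEND7 (-0.06) were not called. With GC offsets NACC2 was also called lower (-0.23, edgeR adjusted p = 0.0321). BEND5 (0.45, edgeR adjusted p = 0.188) passed the threshold without MN1 replicate 1 (0.90, adjusted p = 0.0462), at levels near 1 CPM.

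Against BEND2 cells, 0 of the 8 members were called in MN1-BEND2 cells by edgeR, by DESeq2 or at an unadjusted p under 0.05, beside 43.6% of tested genes called. The 95% intervals of the log2 fold changes were narrow for BEND4 (-0.13 to 0.04), BEND7 (-0.14 to 0.06), NACC1 (-0.02 to 0.17) and NACC2 (-0.17 to 0.16). They were wider for BEND3 (-0.34 to 0.05), BEND6 (-0.23 to 0.30) and BEND5 (-0.43 to 0.64). Within these limits, no member differed detectably between cells with the fusion and cells with BEND2 alone.

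On the log2 scale, the fusion's change against control was also compared with the sum of the changes in MN1 cells and in BEND2 cells. Of the 7 members, 4 fell short of that sum and 0 exceeded it, beside 36.9% of tested genes that departed in either direction and 18.6% that fell short. The departure was -0.80 for BEND6 (SE 0.17, edgeR adjusted p = 0.00282) and -0.61 for NACC1 (SE 0.061, edgeR adjusted p = 1.23e-05), both held in all 18 alternatives. It was -0.52 for BEND3 (SE 0.13, edgeR adjusted p = 0.00746; 0.0669 with DESeq2) and -0.37 for NACC2 (SE 0.11, edgeR adjusted p = 0.0202). The NACC2 departure lost its call in 6 of 18 alternatives, among them without control replicate 1 (0.0575), MN1 replicate 2 (0.0577), BEND2 replicate 2 (0.0674) or MN1-BEND2 replicate 1 (0.0696), and without control and MN1 replicates 1 together (0.0868). All 3 changes share the control libraries, and the fusion is a single transcript, not MN1 and BEND2 side by side.

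**Figure D3:**
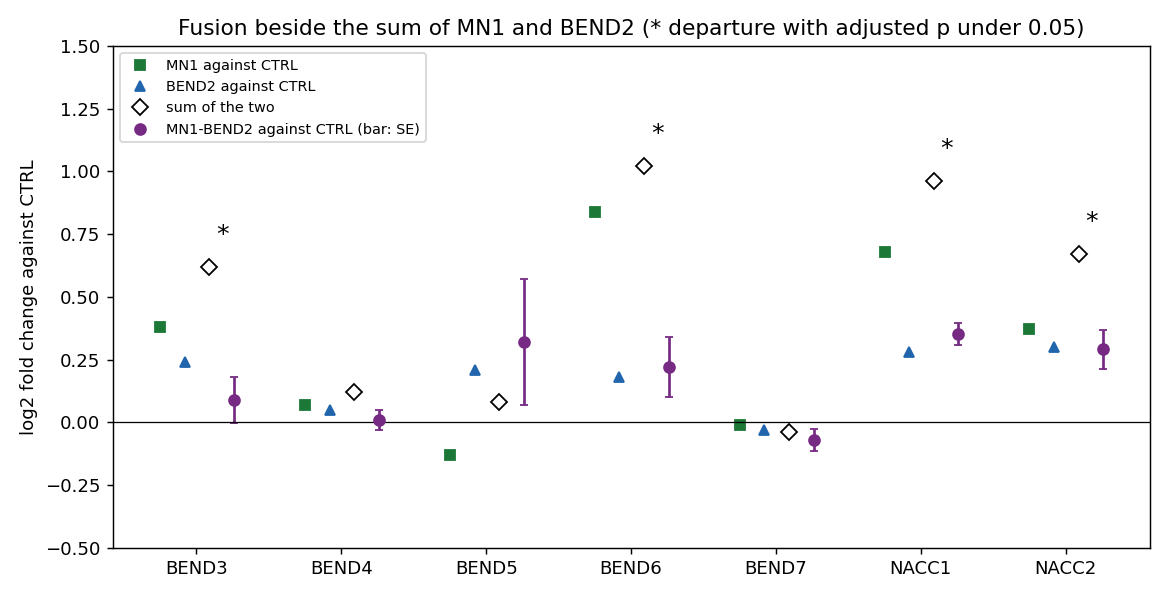
Log2 fold change against control in MN1 cells (squares), in BEND2 cells (triangles), their sum (open diamonds) and in MN1-BEND2 cells (circles, with SE) for 7 members; a star marks a departure with an edgeR adjusted p under 0.05. The circles of BEND6, NACC1, BEND3 and NACC2 lie below the diamonds, by 0.80, 0.61, 0.52 and 0.37.

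In MN1-CXXC5 cells BEND4 and BEND7 rose, by about the same amount. BEND4 had 68.9 and 68.3 CPM in control cells and 93.6 and 88.4 CPM in MN1-CXXC5 cells, above the 68.0 to 72.9 CPM of all other libraries. Its log2 fold change was 0.41 (SE 0.04, 1.33-fold, edgeR adjusted p = 8.13e-06). BEND7 had 46.8 and 46.1 CPM in control cells and 59.7 and 62.2 CPM in MN1-CXXC5 cells, above the 42.8 to 46.8 CPM elsewhere. Its log2 fold change was 0.39 (SE 0.045, 1.31-fold, edgeR adjusted p = 2.39e-05). Both held in all 18 alternatives, BEND4 between 0.30 and 0.45 and BEND7 between 0.28 and 0.43. Against MN1 cells the differences were alike, 0.34 for BEND4 (edgeR adjusted p = 2.32e-05) and 0.40 for BEND7 (edgeR adjusted p = 1.6e-05).

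BEND3 had 18.7 and 16.7 CPM in MN1-CXXC5 cells (log2 fold change 0.35, SE 0.093, edgeR adjusted p = 0.0091). That call was lost with DESeq2 (0.0698), without control replicate 2 (0.104) and without MN1-CXXC5 replicate 1 (0.0909). BEND6 had 8.94 and 9.29 CPM and was not called (0.32, edgeR adjusted p = 0.0539), though 5 of 18 alternatives called it, among them the fits without MN1-BEND2 replicate 1 (0.0402) or replicate 2 (0.0413). NACC1 fell to 40.4 and 42.7 CPM, below all other libraries (-0.28, SE 0.048, edgeR adjusted p = 0.000554), and NACC2 had 23.6 and 23.9 CPM (0.08, not called). With GC offsets NACC1 turned to 0.11 (edgeR adjusted p = 0.0983), so neither its direction nor its call held. Of the 7 members 3 were higher and 1 lower, beside 44.3% of tested genes called, 19.2% higher and 25.1% lower. Scaling by library totals moved the split of all called genes from 43.4% higher to 36.3% higher and left the members' split at 3 and 1. That split was 4 and 1 with RLE factors and 4 and 0 with GC offsets.

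Against MN1 cells, MN1-CXXC5 cells had less NACC1 (-0.96, SE 0.046, edgeR adjusted p = 1.43e-08; -0.48 with GC offsets) and less BEND6 (-0.52, SE 0.12, edgeR adjusted p = 0.00327). NACC2 was also lower (-0.29, edgeR adjusted p = 0.0126), a call lost with DESeq2 (0.089), without MN1 replicate 1 (0.0655) or 2 (0.0569), without MN1-CXXC5 replicate 1 (0.0577) and without control and MN1 replicates 1 together (0.0747). With GC offsets NACC2 turned to 0.01 (edgeR adjusted p = 0.949). With BEND4 and BEND7 that makes 5 of 7, beside 48.8% of tested genes. The fusions themselves differed at 5 of 7 members, beside 58.6% of tested genes. MN1-BEND2 cells had less BEND4 (-0.40, edgeR adjusted p = 3.83e-06) and BEND7 (-0.46, edgeR adjusted p = 2.64e-06) than MN1-CXXC5 cells, both held in all 18 alternatives. They had more NACC1 (0.63, edgeR adjusted p = 2.84e-07), but with GC offsets NACC1 turned to -0.05 (adjusted p = 0.47). BEND3 (-0.25, edgeR adjusted p = 0.0317) and NACC2 (0.21, edgeR adjusted p = 0.0447) were called. BEND3 lost its call in 4 of 18 alternatives, among them DESeq2 (0.152) and library totals in place of TMM factors (edgeR, 0.0817). It also lost it without MN1-BEND2 replicate 1 (log2 fold change -0.21) or MN1-CXXC5 replicate 1 (-0.17). NACC2 lost its call in 11 of 18 alternatives. Its log2 fold change was 0.12 without MN1-BEND2 replicate 2 and 0.17 without control and MN1 replicates 1 together. With GC offsets NACC2 was called the other way (-0.24, edgeR adjusted p = 0.0326).

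BEND5, the least abundant of the 7, was called in none of the comparisons. It ranged from 0.857 CPM in MN1 replicate 2 to 1.64 CPM in MN1-BEND2 replicate 1. The groups held 39 to 70 BEND5 reads each, and the 95% interval of its log2 fold change against control in MN1-BEND2 cells was -0.23 to 0.87, which still includes a change as large as that of BEND6 in MN1 cells.

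The order of the groups differed between members. For NACC1 it was MN1 (80.9 ± 1.60 CPM, SD, n = 2), MN1-BEND2 (64.1 ± 2.72), BEND2 (61.1 ± 0.632), control (50.4 ± 1.28) and MN1-CXXC5 (41.6 ± 1.62), and each neighbour differed by edgeR except MN1-BEND2 and BEND2 (adjusted p = 0.193). Below MN1 this order did not hold with GC offsets, where control lay below MN1-CXXC5 (by 0.11 on the log2 scale) and BEND2 was not called against control. For BEND6 it was MN1 (13.0 ± 0.324), MN1-CXXC5 (9.11 ± 0.248), MN1-BEND2 (8.43 ± 1.23), BEND2 (8.35 ± 0.980) and control (7.28 ± 0.353), and only the first step was called (edgeR adjusted p = 0.00327). For BEND4 and BEND7 only MN1-CXXC5 stood apart, at 91.0 ± 3.66 and 61.0 ± 1.76 CPM. For NACC2 the groups MN1, BEND2 and MN1-BEND2 (28.9, 27.8 and 27.3 CPM) did not differ from each other by edgeR, and neither did MN1-CXXC5 and control (23.7 and 22.4 CPM). For BEND3 and BEND5 no neighbouring groups in the order were called different.

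With GC offsets the rise of NACC1 in MN1 cells was 0.59 (edgeR adjusted p = 1.02e-06) and that of BEND6 was 0.90. BEND4 and BEND7 in MN1-CXXC5 cells were 0.30 and 0.28, and the departures of NACC1 and BEND6 from the sum were -0.67 and -0.78. NACC2 passed the threshold with these offsets in MN1-CXXC5 cells (0.30, edgeR adjusted p = 0.0149).

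**Figure D4:**
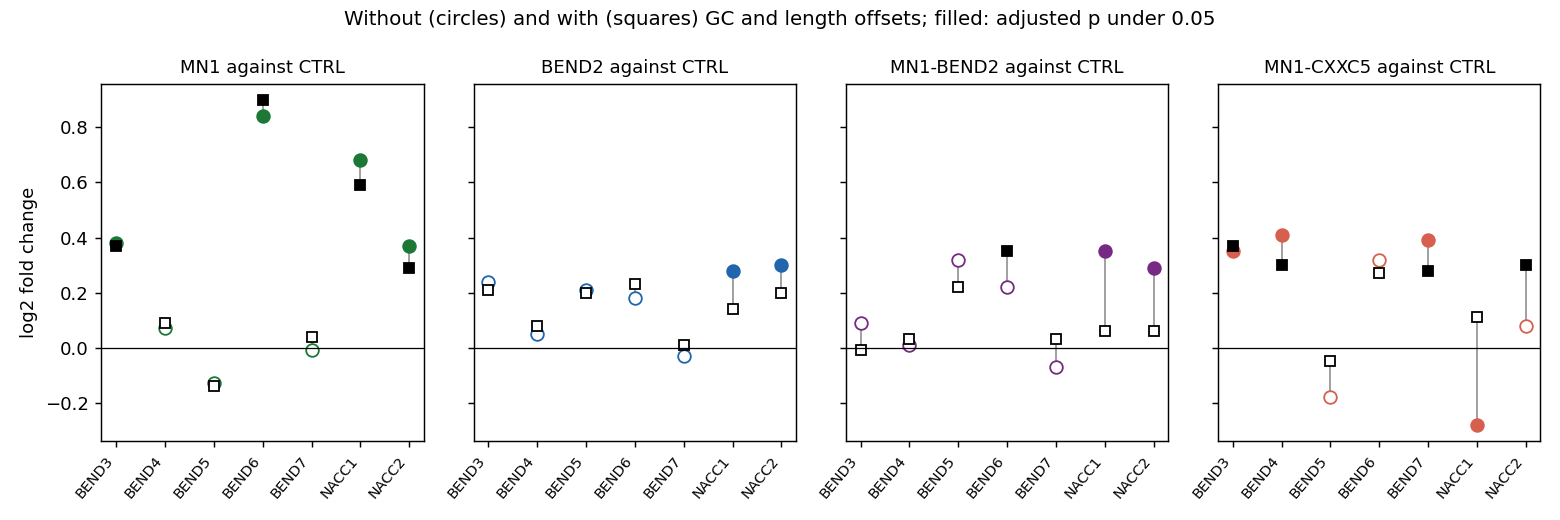
Log2 fold change against control of 7 members in the 4 construct groups (panels), without (circles) and with (squares) offsets for GC content and length; filled symbols have an edgeR adjusted p under 0.05. NACC1 moves from 0.35 to 0.06 in MN1-BEND2 cells and from -0.28 to 0.11 in MN1-CXXC5 cells, while BEND6 in MN1 cells moves from 0.84 to 0.90.

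BANP, another BEN domain protein that is not among the members, had 15.4 ± 1.14 CPM in control cells and 20.8 ± 0.303 CPM in MN1-BEND2 cells (log2 fold change 0.44, edgeR adjusted p = 0.00131), and was also higher there than in BEND2 cells (0.33, edgeR adjusted p = 0.00945). Its transcript has 58.3% GC, in the highest class, where the median change from control in MN1-BEND2 cells was 0.27. The rise of BANP was not checked with GC offsets or the other alternatives.

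Genes that work with the family were read from lists chosen by known function. Their counts are read against the share of all tested genes called in the same comparison: 43.0% in MN1 cells (21.6% higher), 51.9% in MN1-BEND2 cells (26.7% higher), 44.3% in MN1-CXXC5 cells (19.2% higher) and 14.2% in BEND2 cells (6.71% higher). Of 15 NuRD genes, 9 rose and 3 fell in MN1 cells, beside that 43.0% (median log2 fold change 0.16, all genes 0.00). MBD3, a NuRD core subunit, rose most (0.58, edgeR adjusted p = 3.1e-06) and CHD5, a NuRD remodeller of neural tissue, fell most (-0.76, edgeR adjusted p = 5.22e-05). In MN1-BEND2 cells 5 rose and 6 fell, beside 51.9%, and CHD5 went the other way, from 8.91 to 33.4 CPM (1.91, SE 0.077, edgeR adjusted p = 2.37e-09; 1.67 with GC offsets). In MN1-CXXC5 cells 4 rose and 3 fell, close to the 44.3% of all genes, with MBD3 at -0.65 (-0.34 with GC offsets) and HDAC1 at 0.52. In BEND2 cells 3 rose and 0 fell, beside 14.2%, and DESeq2 called 1. With GC offsets the NuRD rises and falls were 7 and 2 in MN1, 2 and 6 in MN1-BEND2, 6 and 2 in MN1-CXXC5 and 1 and 0 in BEND2 cells. CHD5 in MN1-BEND2 cells also exceeded the sum of MN1 and BEND2 (2.88, SE 0.12, edgeR adjusted p = 1.5e-08), opposite in sign to the called departures of the members. Most called NuRD departures had the members' sign: 2 of the 15 genes exceeded the sum and 8 fell short, also with GC offsets. Of all tested genes 36.9% departed and 18.6% fell short. HDAC1 fell short most (-1.12, edgeR adjusted p = 1.03e-08).

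Of 10 polycomb (PRC2) genes, 2 rose and 3 fell in MN1-BEND2 cells, close to the 51.9% of all genes (DESeq2 called 3), where the catalytic subunit EZH2 rose most (0.64, edgeR adjusted p = 1.53e-07). In MN1-CXXC5 cells 3 rose and 2 fell, with JARID2 at 0.51, in MN1 cells 2 rose and 2 fell, and in BEND2 cells 0 were called by edgeR and 0 by DESeq2 (5 had an unadjusted edgeR p under 0.05). With GC offsets the PRC2 rises and falls were 2 and 4 with MN1-BEND2, 3 and 1 with MN1-CXXC5, 3 and 2 with MN1 and 0 and 0 with BEND2. Of 7 genes listed for NoRC and the regulation of ribosomal DNA, the setting in which BEND3 is known, 6 rose with MN1-CXXC5, 5 with MN1, 4 with MN1-BEND2 and 2 with BEND2. Of all genes 19.2%, 21.6%, 26.7% and 6.71% were called higher there. TTF1, which terminates ribosomal RNA transcription, rose most in MN1-CXXC5 cells (0.51, edgeR adjusted p = 1.03e-05), and SIRT7, a nucleolar deacetylase, in MN1-BEND2 cells (0.69) and MN1 cells (0.50). SMARCA5 was the only called fall of that list against control (-0.18 in MN1-BEND2 cells; -0.04 with GC offsets, edgeR adjusted p = 0.488). With GC offsets these NoRC counts of rises were 6, 5, 4 and 1, and DESeq2 called 1 gene of the list in BEND2 cells.

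Of 10 other genes listed with NACC1 and BEND3, 5 rose and 3 fell in MN1-CXXC5 cells (44.3% of all genes called). In MN1-BEND2 cells 3 rose and 3 fell (51.9%). With GC offsets these became 3 and 2, and 1 and 3. GADD45GIP1 was 0.40 in MN1 cells and -0.58 in MN1-CXXC5 cells, both called (-0.26 with GC offsets in the latter). NACC1 had the same directions before GC offsets, and a link between these genes was not tested. HDAC4, a class IIa deacetylase, rose in both fusions, by 0.65 and 0.57. In MN1 cells 2 rose and 2 fell, beside 43.0%, where DESeq2 called 2, and in BEND2 cells 0 were called by edgeR and 0 by DESeq2 (1 had an unadjusted edgeR p under 0.05).

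Of 20 Notch and RBPJ genes, the setting in which BEND6 is known, 17 passed the filter on low counts. In MN1 cells 3 rose and 7 fell (median -0.19), beside 43.0% of all genes called (3909 higher and 3877 lower of 18127). The receptor NOTCH2 rose most (0.48, edgeR adjusted p = 3.46e-07). HEY1, a direct Notch target, fell most (-1.07, edgeR adjusted p = 6.68e-07). BEND6 was highest in these cells, and its part in these changes was not tested. In MN1-BEND2 cells 9 rose and 4 fell (median 0.27), beside 51.9%, and the ligand DLL4 rose most (1.63, edgeR adjusted p = 1.75e-06). With GC offsets 3 rose and 10 fell in MN1 cells, while 5 rose and 7 fell in MN1-BEND2 cells, so the balance in MN1-BEND2 cells depended on that choice while DLL4 stayed at 1.40. In MN1-CXXC5 cells 4 rose and 5 fell, beside 44.3%, HEY1 at 0.67 and HES4 at -1.06 (-0.33 with GC offsets). In BEND2 cells 3 rose and 2 fell, beside 14.2%, and DESeq2 called 2 genes.

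Of 24 meiosis and germ line genes, the setting in which BEND2 is known, 12 passed the filter. In BEND2 cells, where 14.2% of all genes were called, 0 rose and 1 fell, MND1, a recombination factor (-0.28, edgeR adjusted p = 0.011; 0 genes of the list were called by DESeq2). In MN1-BEND2 cells 2 rose and 2 fell, beside 51.9% of all genes. The cohesin subunit STAG3 rose most (1.55, edgeR adjusted p = 2.05e-07), and MND1 fell by 2.28 on the log2 scale (SE 0.074, edgeR adjusted p = 4.26e-10). MND1 in MN1-BEND2 cells was also below BEND2 cells (-2.00) and MN1 cells (-1.87). In MN1 and in MN1-CXXC5 cells (43.0% and 44.3% of all genes) 2 rose and 4 fell, and DESeq2 called 3 and 2 genes, with SYCP2, a synaptonemal complex protein, at 0.77 and 0.62. The numbers of rises and falls in this list against control were the same with GC offsets.

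Of 8 genes next to BEND2 on the X chromosome, 7 passed the filter. RAI2, a transcriptional corepressor, rose against control in every construct group, by 1.98 with MN1-BEND2, 1.42 with MN1, 0.98 with MN1-CXXC5 and 0.65 with BEND2 (edgeR adjusted p at most 0.00521), comparisons that share the control libraries. DESeq2 called 0 genes of this list in BEND2 cells, so the call of RAI2 there was lost. In MN1-BEND2 cells 3 of the 7 rose and 4 fell, beside 51.9% of all genes called, and PPEF1 fell most (-1.12). In MN1 cells 2 rose and 3 fell, beside 43.0%, and DESeq2 called 3. In MN1-CXXC5 cells 3 rose and 0 fell, beside 44.3%, and RAI2 was the only call in BEND2 cells, beside 14.2%. With GC offsets the rises and falls were 3 and 4 with MN1-BEND2, 2 and 2 with MN1, 2 and 0 with MN1-CXXC5 and 1 and 0 with BEND2.

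The genes whose levels followed each member most closely were taken over the 10 libraries by Pearson's r of log2(CPM + 0.5), among 10697 or 10698 genes with a mean of at least 5 CPM. The libraries share groups, so r is only a description. ATP5MC3 (0.996) and RTL8C (0.993) were closest to NACC1, and SKIDA1 (0.985) and TTF2 (0.979) to BEND4. DPYSL2 and ARHGAP21 (both 0.982) were closest to BEND7, and PFDN5 (0.962) and SUMO3 (0.96) to BEND6. TBC1D1 (0.916) and ERCC6L (0.912) followed BEND3, and THRA (0.917) and ANAPC15 (0.912) followed NACC2. For BEND2, carried by its construct, they were KIRREL1 (0.946) and CAMKK1 (0.944), and for BEND5 RMND5A (0.851) and PRR5 (0.842).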

How the data were processed

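RNA was measured in 10 libraries, 2 in each of 5 groups, grouped by the labels' genotype. Per the submitters' processing notes, reads were handled with HISAT2, SAMtools 1.0.1 and featureCounts 2.0.0 on GRCh38 (hg38). Strand and counting options are not given in the labels, so overlapping antisense genes cannot be told apart. The deposited table gives whole-number counts per gene with no normalization. Its 58261 lines hold 58216 identifiers, of which 45 occur in 2 lines that were summed, and 27 symbols that had become dates were replaced by GENCODE v29 names, which also gave positions.

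The members and all gene lists were chosen with earlier results of these data known. A single edgeR 4.0.16 quasi-likelihood fit (R 4.3.3, TMM factors, genes kept with filterByExpr by group, group as the only factor) took all 10 libraries and left 5 residual degrees of freedom, with a common biological coefficient of variation of 0.04. P-values were two-sided, adjusted by Benjamini-Hochberg over 18127 tested genes and called under 0.05. CPM values use TMM factors, and the SE belongs to the log2 fold change. Of each partner list, the called genes with the largest rise and fall could be named. Alternatives were other scalings, no filter, DESeq2 1.42.0, only the groups compared, a replicate block, GC and length offsets, and leaving out libraries. Leaving out control and MN1 replicates 1 together was chosen after seeing the data. The fits were run on simulated counts, with changes planted in few genes of a single group. Such counts are unlike these data, so the runs do not measure error here. Across genes, libraries of a group correlated at 0.9947 to 0.996, and chi-square values of 2.13 to 3.51 per degree of freedom put their differences above counting noise.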

Additional observations from a re-analysis of the deposited data

Results flagged for a closer look

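For 4 members the change in MN1-BEND2 cells differed from the sum of the changes in MN1 cells and BEND2 cells, by a test of that difference. The departure was -0.80 for BEND6, -0.61 for NACC1, -0.52 for BEND3 and -0.37 for NACC2 on the log2 scale (edgeR adjusted p = 0.00282, 1.23e-05, 0.00746 and 0.0202). All 4 have the same sign, and the comparisons behind them share the control, MN1, BEND2 and MN1-BEND2 libraries. Of all tested genes, 36.9% departed in either direction and 18.6% fell short of the sum.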

How the results depend on the processing

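Over the members' fold changes in 9 comparisons, 1180 alternative values kept their direction and side of the threshold, 56 lost a call, 13 gained one and 39 changed sign. Depth limits BEND5 (39 to 70 reads a group) and BEND2 without its construct (4 to 17 reads), and with 2 libraries a group single libraries decide the smaller calls of BEND3 and NACC2. Fewer genes were called with DESeq2: 6250 of 9416 in MN1-BEND2 cells against control, 4922 of 8033 in MN1-CXXC5, 4811 of 7786 in MN1 and 867 of 2569 in BEND2 cells, 5313 of 8398 in MN1-BEND2 against MN1 cells and 4788 of 7909 against BEND2 cells. These are counts and not shared genes, and the cause was not tested. In BEND2 cells against control the count was also 1691 with GC offsets, 1239 without control and MN1 replicates 1 together (fewer samples), and 1064 to 2526 with single libraries left out. Of all 8 members, 5 were called in MN1-CXXC5 cells against control, and 3 to 6 with single libraries left out, the 3 without MN1-CXXC5 replicate 1. In BEND2 cells 3 were called and 1 with GC offsets, and 4 departed from the sum and 2 with DESeq2.

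The groups share replicate numbers, but the labels do not say that a number marks a shared culture, batch or day. Over the 10 pairs of groups, deviations of the same number correlated at 0.07 to 0.28, a hint from the data of signal shared by number. Of the 12 salivary and squamous genes, 9 had counts in replicate 1 of MN1-BEND2 and of MN1-CXXC5, against 3 and 1 in replicate 2. With a replicate block the count in BEND2 cells against control was 4159, and among the members only BEND6 in MN1-CXXC5 cells changed its call (0.33, edgeR adjusted p = 0.0226).

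Signs changed with GC offsets, for MN1-BEND2 against control, at BEND3 (-0.01) and BEND7 (0.03), at BEND7 in MN1 (0.04) and BEND2 cells (0.01), and at NACC1 in MN1-CXXC5 cells (0.11). They changed for MN1-BEND2 against BEND2 cells at BEND7 (0.02) and NACC1 (-0.08), for MN1-CXXC5 against MN1 cells at BEND3 (0.00), BEND5 (0.09) and NACC2 (0.01), and between the fusions at BEND6 (0.08), NACC1 (-0.05) and NACC2 (-0.24). DESeq2 put BEND4 in MN1-BEND2 cells at 0.00, and without a filter BEND3 in MN1-CXXC5 against MN1 cells was 0.00. Without control and MN1 replicates 1 together, BEND7 in MN1 cells was 0.02 and BEND5 in MN1-CXXC5 against MN1 cells 0.43. With single libraries left out, values that turned sign ranged as follows. In MN1-BEND2 cells against control BEND3 ranged from -0.01 to 0.20 and BEND4 from -0.01 to 0.03. In MN1 cells BEND2 ranged from -4.02 to 4.74, BEND5 from -0.59 to 0.22 and BEND7 from -0.03 to 0.01. In MN1-BEND2 against BEND2 cells BEND2 ranged from -0.01 to 0.05, BEND6 from -0.13 to 0.17, BEND7 from -0.09 to 0.01 and NACC2 from -0.14 to 0.11. In MN1-CXXC5 against MN1 cells BEND3 ranged from -0.11 to 0.05 and BEND5 from -0.41 to 0.43, and between the fusions BEND6 from -0.27 to 0.03. The departure of BEND2 ranged from -4.72 to 4.04, that of BEND5 from -0.12 to 0.68 and that of BEND7 from -0.08 to 0.02. Apart from NACC1 and NACC2 with GC offsets, all of these were uncalled before and after.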
